A study of Rattus norvegicus with 8 samples.

Results

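The genes of myelin and of the oligodendrocytes that make it were examined in the ipsilateral substantia nigra (SN) of rats given an adeno-associated viral vector carrying human α-synuclein (αSyn). The members were all non-control probes whose RefSeq accession maps to *Mbp*, *Mobp*, *Mog*, *Mag*, *Cnp*, *Olig1*, *Olig2*, *Sox10* or *Pdgfra*, which gave 14 probes for 9 genes, out of 45598 probes on the array and 16678 genes that could be named. All 14 were above background on all 8 arrays and entered the test, which covered 33853 probes. The arrays were 1-colour (Cy3) Agilent rat expression arrays, 4 from the AAV-αSyn group and 4 from the AAV-Null group, each of RNA from the SN 20 weeks after surgery. All rats were female Sprague-Dawley rats aged 3 months at surgery with a unilateral stereotaxic injection into the SN. The AAV-αSyn group received an AAV6 vector with wild-type human αSyn at 5.2e+10 vector genomes per µL. The AAV-Null group received an AAV6 vector without it at 5.3e+09 vector genomes per µL, so that the transgene and the vector dose cannot be told apart. The promoter that drives the transgene was not given in the sources used here, and the transgene itself was not analysed here. The methods call the samples of a group biological replicates, but neither they nor the labels tie arrays to animals, and p-values measure only the spread between these samples.

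Oligodendrocytes wrap axons of the central nervous system in layers of membrane that are compacted into myelin, which speeds conduction and supports the axon. Their precursors carry the platelet-derived growth factor receptor α (Pdgfra) and mature under transcription factors such as Olig1, Olig2 and Sox10, of which Olig2 and Sox10 mark the lineage from precursor to myelinating cell. The midbrain around the SN is rich in myelinated fibres, and dopaminergic (DA) neurons themselves send thin, mostly unmyelinated axons to the striatum. In tissue RNA of this kind, fewer cells of a type and less RNA per cell cannot be told apart.

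No member passed the test after adjustment over all probes. Differences are given throughout as AAV-αSyn minus AAV-Null on the log2 scale, from quantile-normalised intensities. With limma and Benjamini–Hochberg adjustment, 0 of the 14 probes reached an adjusted p under 0.05, against 0.0148% of all probes tested. At an unadjusted p under 0.05, 1 of the 14 passed, a second, dim *Mbp* probe that was higher in the AAV-αSyn group, where 5.64% of all probes passed in either direction and 3.31% passed as higher. The difference was above 0 for 11 of the 14 probes, against 52.4% of all probes tested. That count was 10 to 13 under other scalings of the arrays, 9 to 14 on leaving out single arrays and 7 with array weights. The 13 was without normalisation, where the median over all probes was 0.05 and the share of all probes above 0 was not counted. The median difference over the 14 probes was 0.06, with a range of -0.10 to 0.25, beside a median of 0.01 over all probes. The 95% intervals of the 14 probes together reached from a fold of 0.596 to a fold of 1.60.

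Promoter sequence is shown for *Mobp* and *Cnp*, the members whose windows held the Sox motif described here. The 250 bases before a gene's start were taken from RefSeq on the GRCr8 assembly, which gave 7 windows for 6 of the 9 genes (*Mbp*, *Mobp*, *Mag*, *Cnp*, *Olig2* and *Pdgfra*). Each was searched on both strands for the letters AACAAAG, a motif that Sox factors are known to bind, and CAGCTG, an E-box of the kind bound by basic helix-loop-helix factors, the family of Olig1 and Olig2. The motifs do not overlap in these windows. In the sequences, capitals mark the matches on either strand, and CTTTGTT is the Sox motif read on the other strand. The *Mobp* window, chr8:128746982-128747231 on the plus strand, held 5 matches to the Sox motif in its first part and no E-box. Those matches follow one another in a repetitive stretch, and the share of windows with as many matches was not counted. The *Cnp* window, chr10:86011254-86011503 on the plus strand, held 1 Sox match and 1 E-box.
Mobp promoter: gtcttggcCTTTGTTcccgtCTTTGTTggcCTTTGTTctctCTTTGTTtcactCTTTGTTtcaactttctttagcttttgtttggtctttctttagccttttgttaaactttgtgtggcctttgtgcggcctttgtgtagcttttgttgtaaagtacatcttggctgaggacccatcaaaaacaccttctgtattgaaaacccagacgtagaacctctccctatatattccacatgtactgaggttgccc
Cnp promoter: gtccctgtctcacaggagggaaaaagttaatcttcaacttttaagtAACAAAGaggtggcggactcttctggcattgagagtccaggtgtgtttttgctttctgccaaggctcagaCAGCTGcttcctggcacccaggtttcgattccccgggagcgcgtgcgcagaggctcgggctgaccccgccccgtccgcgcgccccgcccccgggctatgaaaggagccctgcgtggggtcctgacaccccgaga

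The Sox motif was in 2 of the 7 windows and in 5.14% of all 33469 windows of the same length. The E-box was in 2 of the 7, the *Cnp* window and 1 of the *Mbp* windows, and in 12% of all windows. A match of letters is a description of these windows and not a binding site.

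*Mbp* encodes myelin basic protein, which holds the inner faces of the myelin membrane together. It was measured by probes for a pair of transcript records. The bright probe, A_64_P017163, read 17.42, 17.41, 17.63 and 17.32 on AAV-Null arrays 1 to 4 and 17.38, 17.58, 17.55 and 17.48 on AAV-αSyn arrays 1 to 4, in normalised log2 intensity. The groups overlapped, with both the highest and the lowest array in the AAV-Null group. The means were 17.44 ± 0.13 (SD, n = 4) and 17.50 ± 0.091 (SD, n = 4), a difference of 0.05 (SE 0.090, limma adjusted p = 0.980). Its 95% interval ran from a fold of 0.898 to 1.20. The difference was 0.11 without AAV-Null array 3, 0.011 without AAV-Null array 4 and 0.0087 with normexp.

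The dim *Mbp* probe, A_64_P017160, was the member whose groups did not overlap. It read 9.49, 9.45, 9.55 and 9.52 on the AAV-Null arrays and 9.64, 9.86, 9.76 and 9.68 on the AAV-αSyn arrays. Every AAV-αSyn array lay above every AAV-Null array, which held for 2.57% of all probes tested. The means were 9.50 ± 0.041 (SD, n = 4) and 9.74 ± 0.098 (SD, n = 4), a difference of 0.23 (SE 0.074), or 1.17-fold with a 95% interval of 1.04 to 1.32. Limma gave p = 0.0135 and an adjusted p = 0.747, and the exact two-sided permutation test gave p = 0.0286, the smallest that the 70 splits of the arrays allow. The unadjusted limma p stayed under 0.05 in all 21 alternative settings, with differences of 0.19 to 0.30 and adjusted p of 0.179 or more. The groups also stayed apart throughout, but few of these settings could have shown an overlap. Settings that change only the fit reuse the same values, and leaving out an array can hardly make separate groups overlap. The probes of *Mbp* are for different transcript records, and the files do not give their sequences, so the transcript parts they read were not compared.

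**Figure D1:**
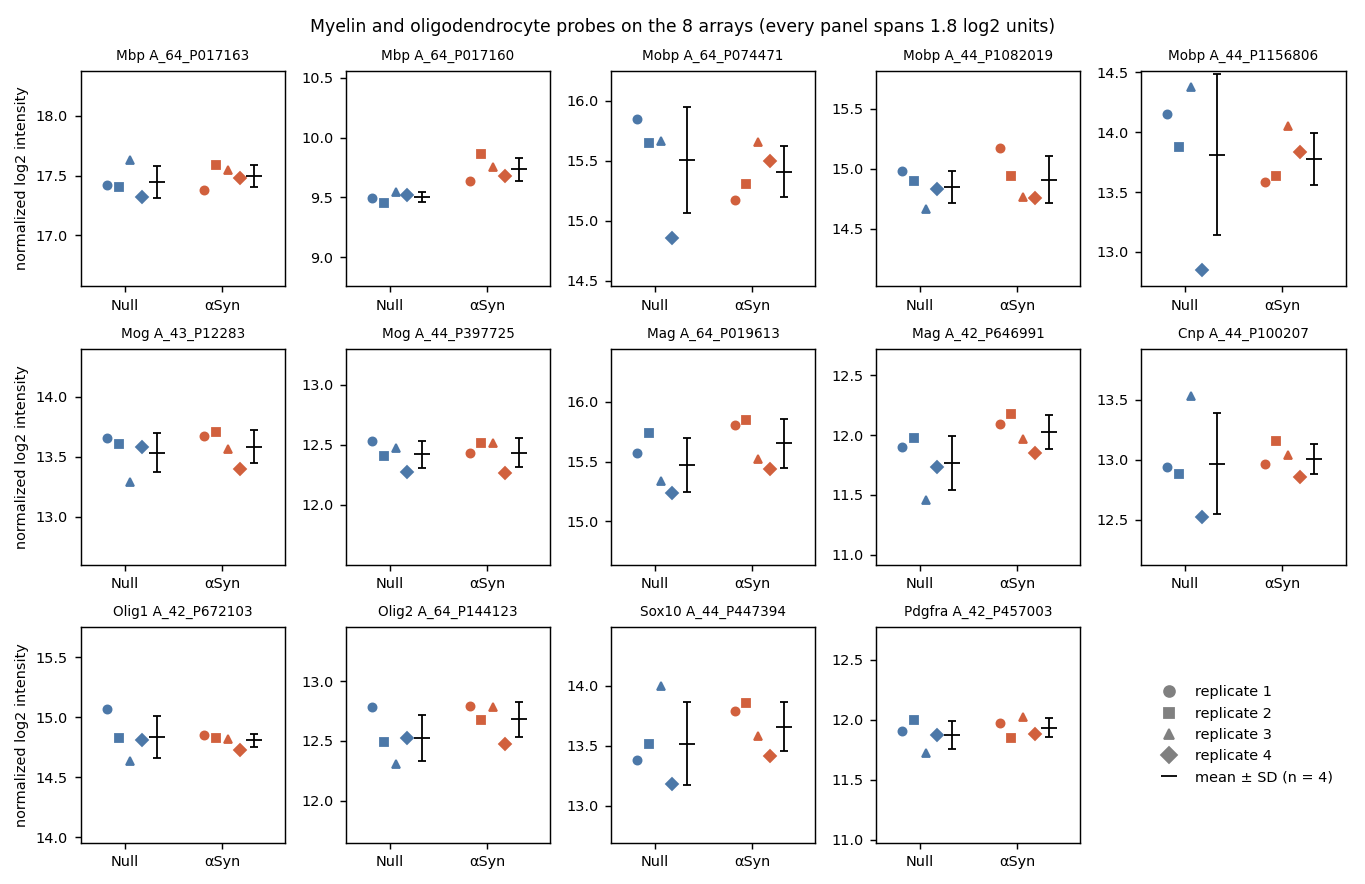
Normalised log2 intensity (vertical axis) of the 14 probes on each array, by group (horizontal axis). Marker shapes give the replicate number and bars the mean ± SD over the 4 arrays of a group. Every panel spans the same number of log2 units. Only for *Mbp* A_64_P017160 did the groups not overlap, with AAV-Null arrays at 9.45 to 9.55 and AAV-αSyn arrays at 9.64 to 9.86.

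The bright *Mbp* probe was also examined for a ceiling. Its raw intensity was 159981 to 182235 units, or 20.5% to 23.4% of the scanner's saturation value of 779399, and it ranked 17 to 29 of the 33853 probes on the 8 arrays. No spot of any member was called saturated, and no non-control spot of any array was. The brightest non-control spot of an array reached 37.6% to 50.7% of the saturation value. The members other than *Mbp* reached at most 8.39% of it, for *Mag* A_64_P019613. Without normalisation between arrays, the difference of the bright *Mbp* probe was 0.07.

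Differences were smaller towards the top of the range. Among the 48 probes with a mean log2 intensity of 17 or more, where the bright *Mbp* probe lies, 0 had a limma p under 0.05, the largest difference in either direction was 0.12 and the median within-group SD was 0.091. Among the 3431 probes between 9 and 10, where the dim *Mbp* probe lies, 4.75% had a p under 0.05 and the median SD was 0.16. Among the 238 probes between 16 and 17, 2 had a p under 0.05, with a largest difference of 0.52, that of *Th*, tyrosine hydroxylase of the DA neurons, which was lower in the AAV-αSyn group. Whether the hybridisation itself was saturated at the bright *Mbp* probe was not tested.

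**Figure D2:**
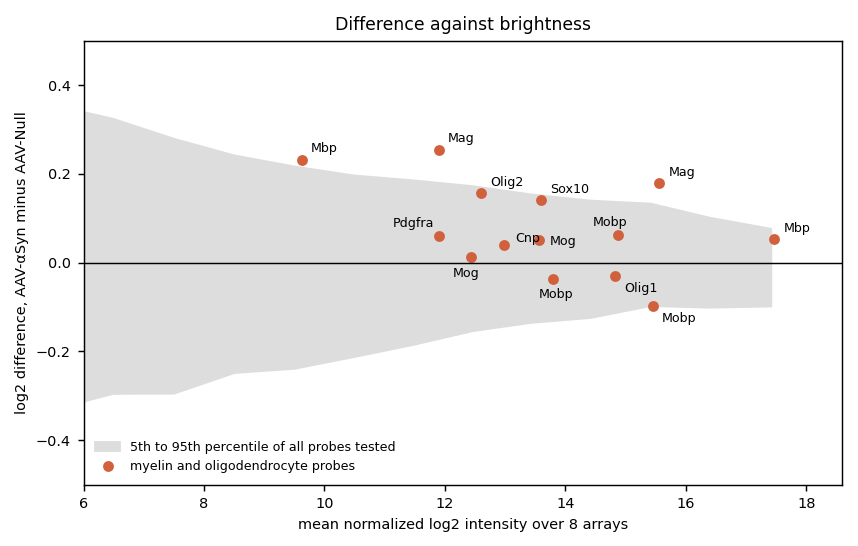
Difference between the groups (vertical axis, log2, AAV-αSyn minus AAV-Null) against the mean normalised log2 intensity over the 8 arrays (horizontal axis) for the 14 probes. The grey band gives the 5th to 95th percentile of the differences of all probes tested, by unit of log2 intensity, and probes under a log2 intensity of 6 are not drawn. The dim *Mbp* probe lies at 0.23 and the bright one, at the right end, at 0.05.

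*Mobp* encodes myelin-associated oligodendrocyte basic protein, a small protein of the compact sheath, and its 3 probes disagreed between arrays. A_64_P074471 read 15.85, 15.65, 15.67 and 14.85 on the AAV-Null arrays and 15.17, 15.30, 15.66 and 15.50 on the AAV-αSyn arrays. A_44_P1156806 read 14.15, 13.87, 14.38 and 12.85 on the AAV-Null arrays and 13.58, 13.63, 14.05 and 13.83 on the AAV-αSyn arrays. Both were lowest on AAV-Null array 4, by 0.61 and 0.94 log2 units under their own means over the 8 arrays. A_44_P1082019, which is spotted 10 times on each array, read 14.98, 14.90, 14.67 and 14.83 on the AAV-Null arrays and 15.17, 14.94, 14.77 and 14.75 on the AAV-αSyn arrays. Its deviation was -0.04 on AAV-Null array 4, and it was lowest on AAV-Null array 3, where A_44_P1156806 was highest.

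For *Mobp* the differences were -0.10 (SE 0.22) for A_64_P074471, 0.06 (SE 0.12) for A_44_P1082019 and -0.04 (SE 0.31) for A_44_P1156806, and limma's adjusted p was 0.985 or more for each. Their exact permutation p-values were 0.686, 0.657 and 0.914. The difference of A_64_P074471 moved with single arrays, from 0.016 without AAV-Null array 1 to -0.32 without AAV-Null array 4, the latter with an unadjusted limma p of 0.0477 and an adjusted p of 0.599. The intervals were wide, from a fold of 0.596 to 1.60 for A_44_P1156806. How large a change 4 arrays a group could detect was not tested.

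*Mog* encodes myelin oligodendrocyte glycoprotein of the outermost surface of the sheath. A_43_P12283 read 13.66, 13.61, 13.29 and 13.58 on the AAV-Null arrays and 13.68, 13.71, 13.56 and 13.40 on the AAV-αSyn arrays. A_44_P397725 read 12.54, 12.41, 12.47 and 12.27 on the AAV-Null arrays and 12.43, 12.52, 12.52 and 12.27 on the AAV-αSyn arrays. The groups overlapped for both, with differences of 0.05 (SE 0.11) and 0.01 (SE 0.091) and limma adjusted p of 0.987 and 0.995. The 95% intervals were a fold of 0.870 to 1.23 and of 0.871 to 1.17.

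*Mag* encodes myelin-associated glycoprotein, which sits on the membrane next to the axon. A_64_P019613, spotted 10 times, read 15.57, 15.74, 15.34 and 15.24 on the AAV-Null arrays and 15.81, 15.84, 15.52 and 15.43 on the AAV-αSyn arrays. A_42_P646991 read 11.90, 11.98, 11.46 and 11.73 on the AAV-Null arrays and 12.09, 12.18, 11.97 and 11.85 on the AAV-αSyn arrays. For both, AAV-Null arrays 3 and 4 were the lowest, and the groups overlapped. The differences were 0.18 (SE 0.14, limma adjusted p = 0.972) and 0.25 (SE 0.13, limma p = 0.0842, adjusted p = 0.924), with exact permutation p of 0.286 and 0.143. The interval of the second was a fold of 0.971 to 1.47. Its difference was 0.33 without AAV-Null array 2 (limma unadjusted p = 0.0447 in that fit), 0.15 without AAV-Null array 3 and 0.10 with array weights. With the replicate number as a block, its unadjusted limma p was 0.0421 (adjusted p = 0.744). The difference of A_64_P019613 was 0.10 without AAV-Null array 4, 0.11 without AAV-αSyn array 2 and -0.0070 with array weights.

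*Cnp* encodes 2′,3′-cyclic nucleotide phosphodiesterase, an enzyme of the uncompacted channels of the sheath. Its probe read 12.94, 12.88, 13.53 and 12.52 on the AAV-Null arrays and 12.97, 13.16, 13.04 and 12.86 on the AAV-αSyn arrays. Both the highest and the lowest array were AAV-Null arrays, and all AAV-αSyn arrays lay between them. The means were 12.97 ± 0.42 (SD, n = 4) and 13.01 ± 0.13 (SD, n = 4), a difference of 0.04 (SE 0.20, limma adjusted p = 0.993). It was -0.11 without AAV-Null array 4 and 0.23 without AAV-Null array 3. Over the 10 probes of the 5 myelin genes the median difference was 0.05, with 8 above 0 and 2 below, and it was 0.017 without AAV-αSyn array 2 and 0.12 without AAV-Null array 3.

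**Figure D3:**
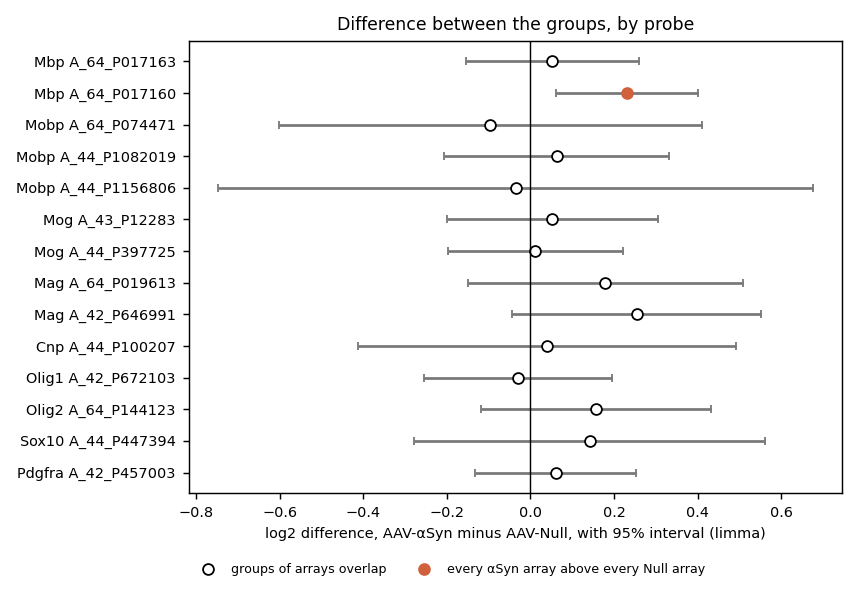
Difference between the groups (horizontal axis, log2, AAV-αSyn minus AAV-Null) for each probe (vertical axis), with limma's 95% interval over 4 arrays a group. The interval of *Mbp* A_64_P017160, from 0.06 to 0.40, is the one that does not include 0, and those of *Mobp* A_44_P1156806 and A_64_P074471 are the widest.

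Among the regulators of the lineage, *Olig2* and *Olig1* encode basic helix-loop-helix factors that specify oligodendrocytes and act in their maturation. *Olig2* read 12.78, 12.49, 12.31 and 12.52 on the AAV-Null arrays and 12.79, 12.68, 12.78 and 12.48 on the AAV-αSyn arrays. *Olig1*, spotted 2 times, read 15.07, 14.83, 14.64 and 14.81 on the AAV-Null arrays and 14.85, 14.83, 14.82 and 14.73 on the AAV-αSyn arrays. The groups overlapped for both. The differences were 0.16 (SE 0.12, limma adjusted p = 0.972) for *Olig2* and -0.03 (SE 0.098, limma adjusted p = 0.989) for *Olig1*. On leaving out single arrays, that of *Olig2* ran from 0.085, without AAV-Null array 3, to 0.24, without AAV-Null array 1. For *Olig1* the SD was 0.054 among the AAV-αSyn arrays and 0.18 among the AAV-Null arrays, where the median SD over all probes tested was 0.13 and 0.21.

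*Sox10* encodes the factor that switches on myelin genes in maturing oligodendrocytes. It read 13.38, 13.51, 13.999 and 13.18 on the AAV-Null arrays and 13.79, 13.86, 13.58 and 13.41 on the AAV-αSyn arrays, and its highest and lowest arrays were the same AAV-Null arrays, 3 and 4, as those of *Cnp*. The difference was 0.14 (SE 0.18, limma adjusted p = 0.973), with a 95% interval of a fold of 0.824 to 1.48. On leaving out single arrays it ran from 0.03, without AAV-Null array 4, to 0.30, without AAV-Null array 3.

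*Pdgfra*, the receptor that drives division of oligodendrocyte precursors, was among the steadiest members. Its probe, spotted 2 times, read 11.91, 11.996, 11.72 and 11.87 on the AAV-Null arrays and 11.98, 11.85, 12.03 and 11.89 on the AAV-αSyn arrays. The difference was 0.06 (SE 0.084, limma adjusted p = 0.974), and the interval of a fold of 0.913 to 1.19 was among the narrower of the 14. On leaving out single arrays the difference ran from 0.0097, without AAV-Null array 3, to 0.10, without AAV-Null array 2. Over *Olig1*, *Olig2*, *Sox10* and *Pdgfra* the median difference was 0.10, with 3 of 4 above 0, and it was 0.045 without AAV-Null array 4 and 0.15 without AAV-αSyn array 4. Leaving out the dim *Mbp* probe, none of the other 13 members passed an unadjusted limma p of 0.05, and their exact permutation p-values ran from 0.143 to 0.914.

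The members did not move together from array to array. AAV-Null array 3 was the highest of the 8 arrays for 4 probes, those of *Mbp* (A_64_P017163), *Mobp* (A_44_P1156806), *Cnp* and *Sox10*. It was also the lowest for 6, those of *Mobp* (A_44_P1082019), *Mog* (A_43_P12283), *Mag* (A_42_P646991), *Olig1*, *Olig2* and *Pdgfra*. On that array *Cnp* lay 0.54 above its mean over the 8 arrays, *Sox10* 0.41 above and *Mobp* A_44_P1156806 0.58 above. *Mag* A_42_P646991 had a deviation of -0.43 and *Olig2* of -0.30 there. AAV-Null array 4 was the lowest for 6 probes and the highest for 0.

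The bright *Mbp* probe and those of *Mobp* (A_44_P1156806), *Cnp* and *Sox10* were highest on AAV-Null array 3 and lowest on AAV-Null array 4. Within-group SDs were placed among the 12218 probes at least as bright as the dim *Mbp* probe, the dimmest member. The SD of *Mobp* A_44_P1156806 stood at the 99.0th percentile, that of *Mobp* A_64_P074471 at the 96.5th, that of *Cnp* at the 94.9th and that of *Sox10* at the 93.2nd. The bright *Mbp* probe stood at the 43.8th. Its SD of 0.11 was above the median of 0.091 among probes with a mean log2 intensity of 17 or more. Spots of 1 probe on 1 array agreed more closely than arrays did: for *Mobp* A_44_P1082019 the median SD among its spots was 0.033, against 0.13 and 0.19 among the arrays of the groups. For *Mag* A_64_P019613 these values were 0.059, 0.23 and 0.20.

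**Figure D4:**
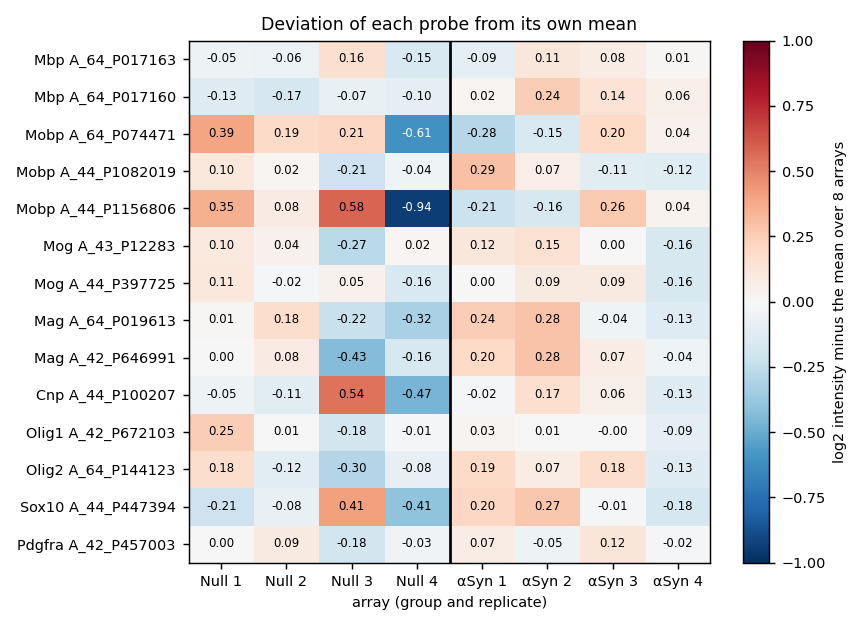
Deviation of each probe (rows) from its own mean over the 8 arrays (columns), in log2 units, printed and coloured from blue (below) to red (above). A black line divides AAV-Null from AAV-αSyn arrays. AAV-Null array 3 holds both high values (*Mobp* A_44_P1156806 0.58, *Cnp* 0.54) and low ones (*Mag* A_42_P646991 -0.43), and AAV-Null array 4 holds the lowest (*Mobp* A_44_P1156806 -0.94).

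All 8 arrays were on 1 slide, with 2 arrays of each group on each side of it, as read from the numbers in the array barcodes. The first side held AAV-Null arrays 2 and 4, and the second held AAV-Null arrays 1 and 3. AAV-Null array 4 was the lowest of the 8 arrays for 6 probes. AAV-Null array 3 was the lowest for 6 and the highest for 4. Within the first side all 14 differences were above 0, and within the second side 6 of the 14 were below 0, those of *Mobp* (A_64_P074471 and A_44_P1156806), *Mog* (A_44_P397725), *Cnp*, *Olig1* and *Sox10*. *Cnp* differed by 0.31 on the first side and -0.23 on the second, and *Sox10* by 0.34 and -0.06. The dim *Mbp* probe differed by 0.21 and 0.25, and *Mag* A_42_P646991 by 0.17 and 0.34.

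The wider set of oligodendrocyte genes was read from 6 further lists of 55 genes, of which 51 were tested, each by its brightest probe. None reached an unadjusted limma p of 0.05 and none an adjusted one, where 5.64% of all probes reached the former. The median difference was 0.06, with 35 above 0 and 16 below, and a range of -0.21 to 0.28, where 52.4% of all probes were above 0. Without AAV-Null array 4 the median was 0.03 with 28 above 0, without AAV-αSyn array 4 it was 0.09 with 40, and without normalisation 0.09 with 42. The median over all probes was itself 0.05 without normalisation, beside 0.01 in the main fit. By list, the median was 0.07 for 12 genes of myelin structure, 0.12 for 12 of oligodendrocyte metabolism and 0.09 for 6 receptors and surface proteins. It was -0.04 for 7 other lineage regulators, -0.03 for 11 genes of precursors and premyelinating cells, and 0.05 for 3 ligands of the platelet-derived growth factor family.

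In the structure list, *Cldn11*, the claudin of the tight junctions between myelin layers, differed by 0.02, and *Hapln2*, a link protein of the matrix at nodes of Ranvier, by 0.13, or by 0.079 without AAV-αSyn array 1. In these lists 0 genes had groups of arrays that did not overlap, where 3.83% of all probes tested had such groups in either direction.

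All 12 genes of the metabolism list had differences above 0, from 0.04 to 0.23, where 52.4% of all probes did. That count was 10 without AAV-Null array 4 and 9 with array weights. These genes share arrays, and no test was made of the list. Its brightest members were *Tf*, transferrin, which carries iron, and *Qdpr*, dihydropteridine reductase, with differences of 0.08 and 0.05. On leaving out single arrays that of *Tf* ran from 0.040, without AAV-Null array 2, to 0.14, without AAV-αSyn array 4, and that of *Qdpr* from 0.027, without AAV-αSyn array 3, to 0.099, without AAV-Null array 4. Among the receptors, *Gpr37*, a receptor of maturing oligodendrocytes, had the lowest p, with a difference of 0.16 (SE 0.071, limma adjusted p = 0.892, exact permutation p = 0.0571), and its unadjusted limma p was under 0.05 in 3 of the 21 alternatives. *Lgi3*, a secreted protein, differed by 0.04.

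Of the other lineage regulators, *Myrf*, the factor needed to start and keep up myelin gene transcription, differed by 0.13 (0.069 without AAV-αSyn array 1 and 0.050 with array weights) and *Nkx6-2*, a homeobox factor of myelinating cells, by -0.04. In the precursor and premyelinating list, *Bcas1*, which marks cells beginning to myelinate, differed by -0.03 and *Tnr*, tenascin-R of the matrix, by 0.01. *Cspg4*, a proteoglycan that marks precursors together with *Pdgfra*, differed by -0.01. Of the ligands, *Pdgfa*, the one that *Pdgfra* is known for in this lineage, differed by 0.05 (0.016 without AAV-Null array 3 and 0.097 without AAV-Null array 1), and the dim *Pdgfc* by 0.28 (SE 0.14, limma adjusted p = 0.920, exact permutation p = 0.0857). The difference of *Pdgfc* was 0.16 without AAV-αSyn array 3, 0.37 without AAV-αSyn array 1 and 0.13 with normexp. Its unadjusted limma p was under 0.05 in 3 of the 21 alternatives, the replicate number as a block among them.

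**Figure D5:**
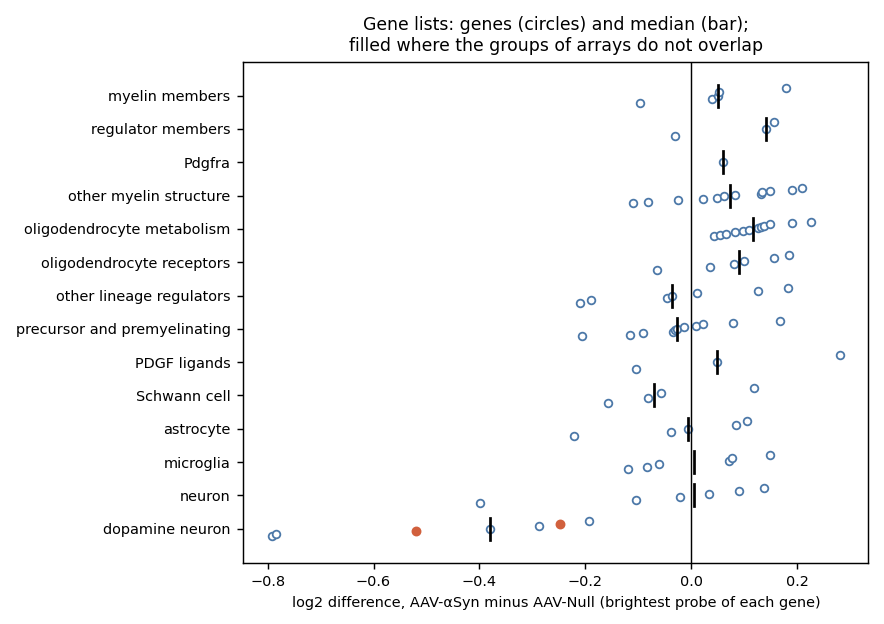
Difference between the groups (horizontal axis, log2, AAV-αSyn minus AAV-Null) of each gene of a list (vertical axis), by the brightest probe of the gene. Circles are genes and bars list medians, and filled circles are genes whose groups of arrays do not overlap. The lists of oligodendrocyte genes lie within -0.21 and 0.28, with none filled, and the dopamine neuron list is below 0 throughout, with *Th* and *Ddc* filled. The dim *Mbp* probe is not drawn, since each gene is drawn by its brightest probe.

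Markers of other cells that the tissue holds were read beside the myelin genes. The mean log2 intensity of the 5 myelin members on an array ran from 14.70 to 15.09 in the AAV-Null group and from 14.93 to 15.12 in the AAV-αSyn group. The 7 markers of DA neurons had differences below 0 throughout, with a median of -0.38 and 4 at an unadjusted limma p under 0.05, and their mean was 12.47 to 12.93 against 12.06 to 12.38. The 3 markers of serotonin neurons, which lie in the raphe and not in the SN, had differences above 0, with a median of 2.30, 2 at an unadjusted limma p under 0.05, and a mean level of 5.24 to 8.40 in the AAV-Null group against 7.47 to 9.14 in the AAV-αSyn group. Their part in the myelin values was not tested.

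Schwann cells, the myelinating cells of peripheral nerve, also transcribe several of the members. Their 4 markers had a median difference of -0.07, and their mean ran from 5.38 to 6.08 in the AAV-Null group and from 5.52 to 5.95 in the AAV-αSyn group. The median difference was -0.01 for 5 astrocyte markers, 0.01 for 6 microglial, 0.01 for 6 neuronal, 0.14 for 3 GABAergic, 0.04 for 4 endothelial and 0.00 for 6 fibroblast and pericyte markers. Among these markers *Syt1*, a synaptic vesicle protein of neurons, was the one at an unadjusted limma p under 0.05, with a difference of -0.40 (adjusted p = 0.675). The astrocyte mean was 12.84 to 13.46 in the AAV-Null group and 12.96 to 13.33 in the AAV-αSyn group, lowest on AAV-Null array 4. That array was also the lowest for the means of the myelin members, the regulators, the neuronal and GABAergic markers and the structure, metabolism, receptor and precursor lists.

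The genes most like the myelin members were sought by Pearson's r over the 8 arrays against the mean of the 5 myelin genes, among 16140 named probes above background on all arrays. They were *Ntrk2* (r = 0.978), *Amh* (0.960), *Flnc* (0.949), *Gfap* (0.948) and *Isy1* (0.943). For *Pdgfra* they were *Ano4* (0.970), *Hook3* (0.956), *Cmklr1* (0.928), *Tprkb* (0.912) and *Rasa2* (0.912). The 8 arrays share a slide, a scan and the normalisation, and the highest of so many correlations over 8 points is a description of these arrays.

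The spread between arrays was not alike in the groups: the median SD over all probes tested was 0.21 among AAV-Null arrays and 0.13 among AAV-αSyn arrays. Between 74.8% and 77.5% of spots were well above background, the median processed intensity was 261 to 338 units, and normalised log2 values of pairs of arrays correlated at 0.983 to 0.993.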

How the data were processed

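RNA of the ipsilateral SN was measured on 8 arrays, 4 a group, and the number of arrays limits the precision. The study's account gives fewer arrays per group and does not say which, so all 8 were used. The authors deposited scanner files with each spot's intensity in arbitrary units, background-corrected by Feature Extraction (12.0.3.2 in the file headers, 11.5.1.1 in the submitters' processing notes). The authors also deposited a matrix of quantile-normalised log2 values, used as an alternative.

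Processed intensities were taken to log2 without control and outlier spots, quantile normalised and averaged per probe. A probe was kept where 0.5 or more of its spots were well above background on 1 array or more, which left 33853 of 45598 probes and removed 11745. Groups were compared by limma 3.58.1 (lmFit, eBayes without trend) in R 4.3.3 and data.table version 1.17.8, two-sided, with Benjamini–Hochberg adjustment over all probes tested at a threshold of 0.05. All 70 splits of the arrays entered each exact permutation test. The scripts were tested on simulated data.

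Names came from RefSeq accessions of GRCr8, which matched 21229 probes. The array design names an older assembly, so no probe positions are given. From the other lists 1 gene was left out of all counts and is not reported here. Members and lists were chosen with earlier results of these data known. Named were all members and, of the other lists, genes at an unadjusted p under 0.05 or without overlap plus the brightest pair of each, and 5 genes most like the members. *Cspg4*, *Th* and *Syt1* were added after their values were seen. Alternatives were 75th percentile scaling, cyclic loess, no normalisation, normexp with an offset of 50, no filter or filters at 4 and 8 arrays, the deposited matrix, an intensity trend, a robust prior, array weights, the replicate number or the slide side as a block, and leaving out each array.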

Additional observations from a re-analysis of the deposited data

How the results depend on the processing

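The count of members with an adjusted limma p under 0.05 was 0 in all 21 alternatives, including the replicate number as a block. The count at an unadjusted p was 1, or 2 with the replicate block, and 1 to 2 on leaving out single arrays. The count of other oligodendrocyte genes at an unadjusted p was 0, or 1 with normexp, 1 with no filter on dim probes, 2 with an intensity trend, 1 with array weights, 3 with the replicate block, and 0 to 2 on leaving out single arrays. Over all probes, the unadjusted count was 1908, or 4503 with array weights and 2218 with the replicate block, and the adjusted count was 5, or 10 and 0. Same-numbered arrays correlated at -0.0022 to 0.27 in their deviations from the group means, 2 of 4 numbers were each other's best match, and same-numbered arrays lay in the same row of the slide. The labels do not say that a number marks a shared batch, and not every pair correlated over 0.1, so the block was not used for the main values. The median of the myelin probes was 0.01 to 0.09 over the alternatives in processing and 0.02 to 0.12 on leaving out arrays, and that of the regulators and *Pdgfra* 0.06 to 0.15 and 0.04 to 0.15. The cause of the changes of sign that follow was not tested. Values near 0 changed sign with 75th percentile scaling for *Cldn11* (-0.011) and *Lgi3* (-0.0033), and with cyclic loess for *Mog* A_44_P397725 (-0.0030) and *Tnr* (-0.00013). Without normalisation they did so for *Mobp* A_44_P1156806 (0.0056), *Olig1* (0.0012), *Nkx6-2* (0.015) and *Bcas1* (0.0017). In that setting the median difference over all probes was 0.05, beside 0.01 in the main fit. With array weights *Mag* A_64_P019613 went from 0.18 to -0.0070, and values near 0 changed sign for *Mobp* A_44_P1082019 (-0.032), *Mog* A_43_P12283 (-0.024), *Pdgfra* (-0.017), *Cldn11* (-0.014), *Bcas1* (0.0096) and *Tnr* (-0.015). On leaving out single arrays, values spanned 0 for *Mobp* A_64_P074471 (-0.32 to 0.016), A_44_P1082019 (-0.024 to 0.12) and A_44_P1156806 (-0.36 to 0.15), *Mog* A_43_P12283 (-0.028 to 0.12) and A_44_P397725 (-0.039 to 0.067), *Cnp* (-0.11 to 0.23), *Olig1* (-0.097 to 0.047), *Cldn11* (-0.062 to 0.087), *Lgi3* (-0.0062 to 0.058), *Nkx6-2* (-0.11 to 0.097), *Bcas1* (-0.14 to 0.086) and *Tnr* (-0.080 to 0.11). Both *Mbp* probes, *Olig2*, *Sox10* and *Mag* A_42_P646991 kept their direction in all 21 alternatives. The intensity trend, the robust prior and the blocks leave these differences unchanged, so they could not have shown a change of direction. No spot of a member was called saturated.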
